A study of Mus musculus with 2 samples.

Results

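Dnmt1, Dnmt3a, Tet2, Tet3, Ezh2, Suz12, Eed and Kdm6b, the genes examined here, encode regulators of DNA methylation and of Polycomb repression. They were chosen by name, 8 of the 32285 genes listed in both libraries, and all 8 were detected in every gate. Methyl groups are placed on unmethylated CpG sites by Dnmt3a and are copied onto the new DNA strand after replication by Dnmt1, while Tet2 and Tet3 oxidize them, a step on the way to their removal. Ezh2 is the catalytic subunit of Polycomb repressive complex 2 (PRC2), which methylates lysine 27 of histone H3 at silenced genes, Suz12 and Eed are the core subunits that it needs for activity, and Kdm6b removes that mark. In T cells these enzymes are known for their roles in effector and memory differentiation and in exhaustion.

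Irradiated BALB/c mice received T cell-depleted bone marrow of C57BL/6 mice and, per the labels, 200000 naive splenic T cells of C57BL/6 donors, an MHC-mismatched transplant that causes graft-versus-host disease. A legend of the study gives a larger number of T cells for these libraries and does not call them naive. A supplementary legend for the same sort gives the number of the labels, also without calling the cells naive. Donor T cells were sorted from the spleens as cells with CD45, TCRβ and the donor's H2Kb but without the recipient's H2Kd, suspensions were pooled, and 1 library was made on day +7 and 1 on day +14 after the transplant. Both library names carry the term PBS, and strains, graft and sort are shared by the days. The study's methods describe female, age-matched mice, but also state that males and females were used in vivo. The sex of the mice behind these libraries is thus not settled. The labels describe a day +7 sort for both libraries, so the day was taken from the titles. With 1 library per day no test could be made, the day cannot be told apart from the library, and the 95% intervals in brackets cover counting error only.

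The kept cells numbered 7179 at day +7, with a median of 9210 unique molecular identifiers (UMIs) each, and 7794 at day +14, with a median of 8144. Between 97.1% and 97.8% of them passed the T cell gate, which asked for UMIs of the T cell receptor constant regions and of the CD3 chains and limited those of myeloid, erythroid and B cell genes. Within it, the CD8 gate required Cd8a or Cd8b1 and no Cd4 UMI, and the CD4 gate the reverse. Cells with at least 10 UMIs of 20 S phase and G2/M genes per 10000 UMIs were called cycling and those with fewer than 5 non-cycling. There were 3566 cycling and 1833 non-cycling CD8 cells at day +7, and 3975 and 1406 at day +14. The CD4 gates were small, with 219 cycling and 209 non-cycling cells at day +7 and 256 and 314 at day +14. A class cut from a score is a range and not a cell type, and 461 cells at day +7 and 521 at day +14 lay within 1 UMI per 10000 of the lower limit. Levels are UMIs summed over the cells of a gate over 1000000 UMIs of that gate (CPM).

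In the GRCm38 annotation the genes lie apart, with Dnmt1 on the minus strand at chr9:20907209-20959888, Dnmt3a on the plus strand at chr12:3806007-3914443, Tet2 on the minus strand at chr3:133463679-133545139, Tet3 on the minus strand at chr6:83362373-83459084, Ezh2 on the minus strand at chr6:47530139-47595341, Suz12 on the plus strand at chr11:79993106-80034123, Eed on the minus strand at chr7:89954654-89980983 and Kdm6b on the minus strand at chr11:69398508-69413675. RefSeq promoter windows of 300 bases, 250 before and 50 after a transcription start, were at hand for 7 of the 8 genes in GRCm38.p6, and Kdm6b had none. Promoters of many genes of the cell cycle hold sites for E2F factors or the CHR element, so the windows were searched on both strands for the E2F-type letters TTTNNCGC, found in 5.17% of all 32851 windows, and for the CHR letters TTTGAA, found in 17.9%. The E2F-type letters were found in the windows of Ezh2 and Suz12 and in 1 of the 3 windows of Dnmt1, and the CHR letters in those of Suz12 and Eed and in another window of Dnmt1. None of the 3 windows of Dnmt3a, and neither of the single windows of Tet2 and Tet3, held either. The letters CCAAT of the CCAAT box, found in 37.4% of all windows, were searched as well. They were found in windows of Dnmt1, Ezh2, Suz12, Eed and Tet3 and in none of Dnmt3a or Tet2. A match describes the letters and is not a binding site.

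The promoters of Suz12 and Eed are shown because both genes were higher in cycling cells and both hold the CHR letters. Each run is the 250 bases before the start, 5′ to 3′ on the strand of the gene, with E2F-type and CHR letters in capitals. The run of Suz12 lies at chr11:79992856-79993105 on the plus strand, outside annotated exons, and that of Eed at chr7:89980977-89981226 on the minus strand, where an exon of another Eed transcript covers 7 bases.
Suz12: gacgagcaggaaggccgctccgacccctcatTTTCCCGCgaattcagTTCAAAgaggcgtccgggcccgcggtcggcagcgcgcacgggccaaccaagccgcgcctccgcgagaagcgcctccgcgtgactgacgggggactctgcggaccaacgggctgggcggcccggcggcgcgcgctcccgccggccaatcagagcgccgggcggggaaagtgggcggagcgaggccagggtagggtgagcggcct
Eed: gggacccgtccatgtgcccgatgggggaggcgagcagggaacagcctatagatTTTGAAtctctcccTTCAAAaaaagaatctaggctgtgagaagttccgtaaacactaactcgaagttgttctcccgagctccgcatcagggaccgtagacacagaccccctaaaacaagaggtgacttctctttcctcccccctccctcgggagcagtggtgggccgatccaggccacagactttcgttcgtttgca

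The match of Ezh2 had its first base at position 4, counted with the start base included. A pair of overlapping matches of Dnmt1 had their first bases at positions -219 and -217 from the start in its window, in an exon of 2 other Dnmt1 transcripts. They are shown with their flanks and with the matched letters in capitals, at chr6:47595012-47595035 for Ezh2 and chr9:20952823-20952852 for Dnmt1, both on the minus strand and within exons of other or the same transcripts. Another E2F-type match in that Dnmt1 window had its first base at position 34 and is not shown.
Ezh2 start: ttgctgcgTTTGGCGCtcggtccg
Dnmt1 exon: gtttccgcgcGCGCGAAAAAgccggggtct

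The levels were first compared between cycling and non-cycling cells, within each library and lineage. Dnmt1, Ezh2, Suz12 and Eed were higher in cycling cells in all 4 comparisons. Dnmt3a, Tet2, Tet3 and Kdm6b lay below 0 in all 4, though not with every setting. Against non-cycling cells without a cycle UMI, Tet3 in CD8 cells at day +7 was 0.54 and Kdm6b in CD8 cells at day +14 was 0.23. In CD4 cells the highest values over the settings were 0.30 for Dnmt3a and 0.01 for Tet3 at day +7 and 0.25 for Kdm6b at day +14. A gene was counted as past the fold when its log2 ratio, with 1 CPM added to both groups, reached 0.5 either way at a mean of at least 10 CPM. By that count 4 of the 8 genes were higher in cycling CD8 cells at day +7 and at day +14, beside 19.7% and 21.3% of all genes tested. The count was again 4 in CD4 cells on both days, beside 19.2% and 20.8%. The median log2 ratio of the 8 genes was 0.35 in CD8 cells at day +7 and 0.41 at day +14, and that of all genes tested was 0.05 and 0.01.

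**Figure D1:**
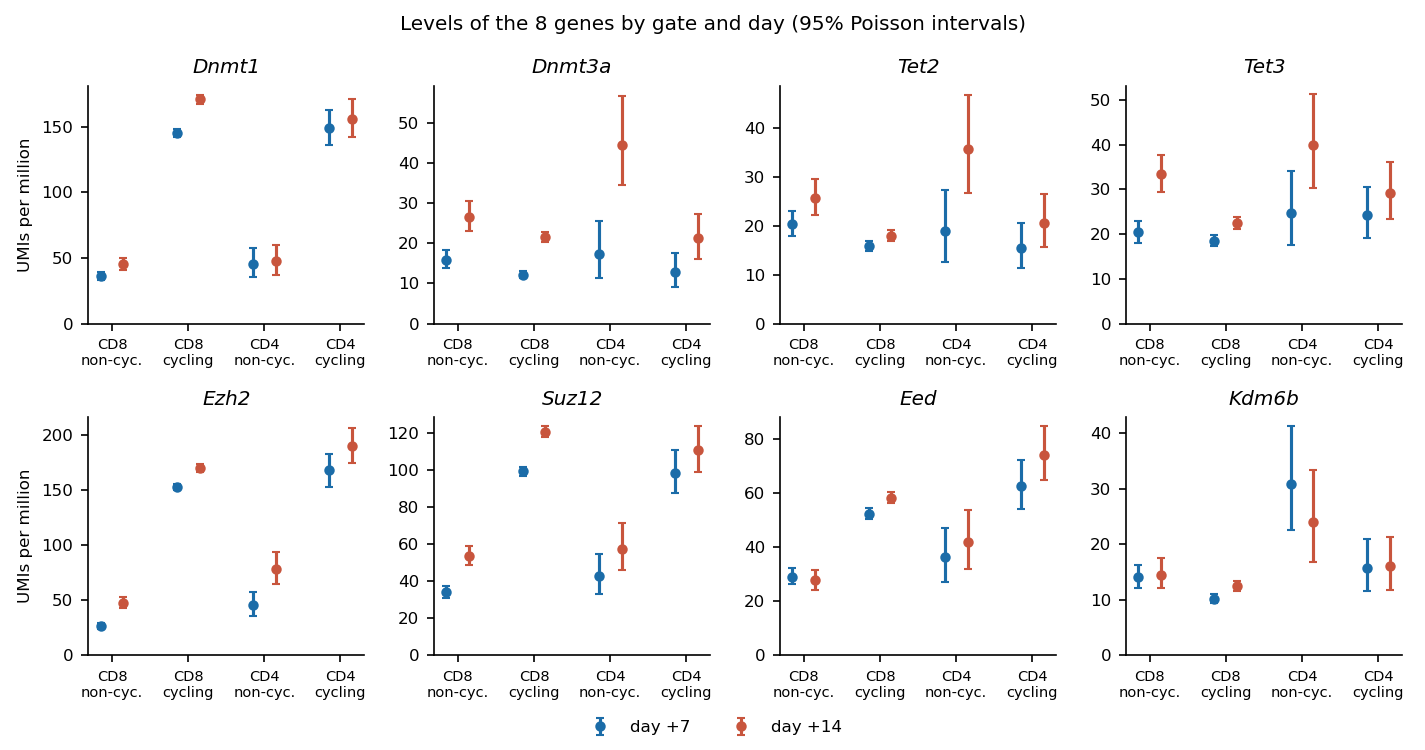
Level of each gene in CPM (linear axis from 0) in non-cycling and cycling CD8 and CD4 cells at day +7 (blue) and day +14 (red), with 95% Poisson intervals, 1 library per day. Ezh2 in CD8 cells stood at 26.2 and 47.5 in the non-cycling and 153 and 170 in the cycling gates, while Dnmt3a was higher at day +14 in all 4 gates.

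Dnmt1 stood at 36.1 CPM [32.9, 39.5] in non-cycling and 145 CPM [142, 148] in cycling CD8 cells at day +7. At day +14 the values were 45.2 CPM [40.7, 50.2] and 171 CPM [167, 174]. The log2 ratios of 2.01 [1.87, 2.14] and 1.92 [1.76, 2.07] lay above those of 96.3% of genes tested on each day. In CD4 cells the levels were 45.6 and 149 CPM at day +7 and 47.3 and 156 CPM at day +14, log2 ratios of 1.71 [1.34, 2.10] and 1.72 [1.35, 2.11]. The intervals of Dnmt1 in cycling and non-cycling cells were far apart in both lineages and on both days. Cycling cells also hold more RNA, with a median of 12785 UMIs against 6550 in CD8 cells at day +7, so that Dnmt1 amounted to 2.18 UMIs per cycling and 0.252 per non-cycling cell.

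Uhrf1, which brings Dnmt1 to hemimethylated DNA at the replication fork, and Hells, a chromatin remodeler needed for DNA methylation, were also higher in cycling cells. In CD8 cells at day +7 Uhrf1 was at 2.97 and 69.9 CPM, a log2 ratio of 4.56 [4.10, 5.06], and Hells at 15.3 and 129 CPM, a log2 ratio of 3.08 [2.87, 3.29]. At day +14 their log2 ratios were 3.76 [3.35, 4.21] and 2.67 [2.45, 2.89]. Of the 13 DNA methylation partners listed, 8 reached 10 CPM in this comparison on each day, 4 of them were higher in cycling CD8 cells and 0 lower, beside 19.7% and 21.3% of all genes higher and 10.9% and 15.4% lower at day +7 and day +14.

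Ezh2 had the highest ratio of the 8 genes in CD8 cells at day +7. At day +14 in CD8 cells and at day +7 in CD4 cells the intervals of Ezh2 and Dnmt1 overlap, and their order in CD8 cells at day +14 turned with thinned cells. Ezh2 stood at 26.2 CPM [23.4, 29.1] in non-cycling and 153 CPM [150, 156] in cycling CD8 cells at day +7, a log2 ratio of 2.55 [2.39, 2.71] that was above that of 97.0% of genes. At day +14 it stood at 47.5 CPM [42.8, 52.6] and 170 CPM [167, 174], a log2 ratio of 1.84 [1.69, 1.99]. The intervals of the 2 ratios do not overlap, and the non-cycling levels lay further apart between the days than the cycling ones. In CD4 cells Ezh2 stood at 45.6 and 168 CPM at day +7 and at 78.1 and 190 CPM at day +14, log2 ratios of 1.88 [1.51, 2.26] and 1.28 [0.99, 1.59].

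Suz12 and Eed followed with smaller ratios. Suz12 stood at 34.1 CPM [31.0, 37.5] in non-cycling and 99.6 CPM [96.9, 102] in cycling CD8 cells at day +7 and at 53.5 CPM [48.5, 58.9] and 121 CPM [118, 124] at day +14, log2 ratios of 1.55 [1.40, 1.69] and 1.17 [1.03, 1.32]. Eed stood at 29.1 CPM [26.2, 32.2] and 52.5 CPM [50.6, 54.5] at day +7 and at 27.8 CPM [24.2, 31.7] and 58.3 CPM [56.3, 60.4] at day +14, log2 ratios of 0.85 [0.69, 1.01] and 1.07 [0.87, 1.28]. The 3 genes of the PRC2 core thus did not share 1 ratio at day +7, where the intervals of Ezh2, Suz12 and Eed lay apart. In CD4 cells the log2 ratios were 1.20 [0.81, 1.61] and 0.95 [0.60, 1.31] for Suz12 and 0.79 [0.35, 1.25] and 0.83 [0.41, 1.27] for Eed, whose ratio at day +14 was 0.21 with the cells thinned to 4000 UMIs.

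Ezh1, the other catalytic subunit of PRC2, went the opposite way as a share of the RNA. It stood at 16.7 CPM [14.5, 19.1] in non-cycling and 8.97 CPM [8.18, 9.80] in cycling CD8 cells at day +7 and at 21.4 CPM [18.3, 24.9] and 9.30 CPM [8.51, 10.1] at day +14, log2 ratios of -0.90 [-1.13, -0.66] and -1.20 [-1.46, -0.94]. Of the other partners, the histone-binding subunits Rbbp7 and Rbbp4 were higher in cycling CD8 cells, with log2 ratios of 1.74 and 0.98 at day +7 and 1.52 and 1.01 at day +14. Jarid2, an accessory subunit, was lower on both days, with log2 ratios of -0.79 [-0.94, -0.65] and -0.84 [-1.0, -0.69]. Phf1, another accessory subunit, was lower at day +14 with -1.50 [-1.78, -1.21]. Per cell, Ezh1 and Jarid2 were not lower at day +7. Ezh1 had 482 UMIs in 3566 cycling and 214 in 1833 non-cycling CD8 cells, and Jarid2 had 1315 and 543. Phf1 was lower per cell too, with 360 UMIs in 3975 cycling and 146 in 1406 non-cycling CD8 cells at day +14. In all, 3 PRC2 partners were higher and 2 lower of 7 that reached 10 CPM at day +7, and 2 were higher and 3 lower of 8 at day +14, beside the same shares of all genes as the DNA methylation partners.

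**Figure D2:**
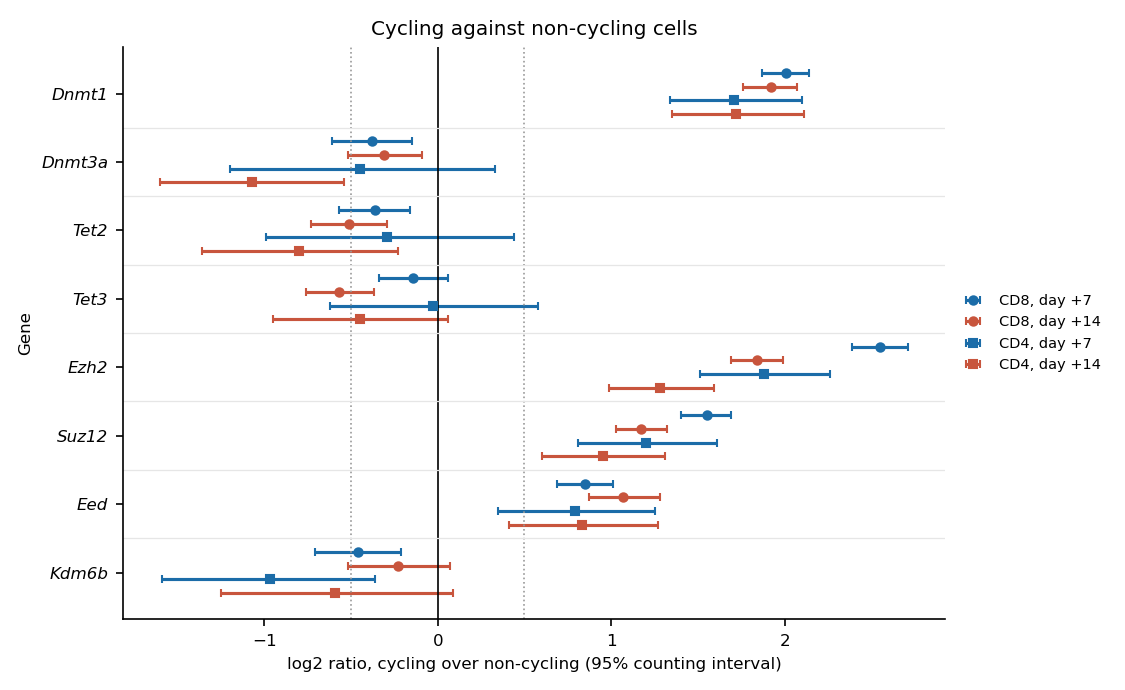
Log2 ratio of cycling over non-cycling cells (x axis, with 95% counting intervals) for each gene, in CD8 (circles) and CD4 cells (squares) at day +7 (blue) and day +14 (red), with dotted lines at -0.5 and 0.5. Dnmt1, Ezh2, Suz12 and Eed lie right of 0.5 in all 4 comparisons, from 0.79 to 2.55, and the other 4 genes lie left of 0.

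Dnmt3a was at 15.9 CPM [13.8, 18.3] in non-cycling and 12.2 CPM [11.3, 13.2] in cycling CD8 cells at day +7, and at 26.6 CPM [23.1, 30.5] and 21.5 CPM [20.3, 22.8] at day +14. The log2 ratios of -0.38 [-0.61, -0.15] and -0.31 [-0.52, -0.09] were below 0 by more than the counting error. They are ratios of shares of the RNA, and per cell Dnmt3a went from 0.111 to 0.184 UMIs at day +7 and from 0.149 to 0.296 at day +14. Tet2, at 0.142 and 0.238 UMIs per CD8 cell, and Kdm6b, at 0.0977 and 0.153, likewise had more UMIs per cycling cell at day +7. In CD4 cells the log2 ratio was -0.45 [-1.20, 0.33] at day +7, which cannot be told from 0 at this depth, and -1.07 [-1.60, -0.54] at day +14.

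Tet2 stood at 20.3 and 15.8 CPM in non-cycling and cycling CD8 cells at day +7 and at 25.6 and 17.9 CPM at day +14, log2 ratios of -0.36 [-0.57, -0.16] and -0.51 [-0.73, -0.29]. Tet3 had log2 ratios of -0.14 [-0.34, 0.06] and -0.57 [-0.76, -0.37], from 20.4 and 18.5 CPM at day +7 and from 33.4 and 22.5 CPM at day +14. The third member of the family, Tet1, had 24 UMIs in all kept cells at day +7 and 58 at day +14, too few for a comparison of gates. In CD4 cells the log2 ratios were -0.29 [-0.99, 0.44] and -0.80 [-1.36, -0.23] for Tet2 and -0.03 [-0.62, 0.58] and -0.45 [-0.95, 0.06] for Tet3.

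Kdm6b was at 14.0 CPM [12, 16.2] in non-cycling and 10.1 CPM [9.30, 11.0] in cycling CD8 cells at day +7, a log2 ratio of -0.46 [-0.71, -0.21], and at 14.5 CPM [12, 17.5] and 12.4 CPM [11.5, 13.4] at day +14, giving a log2 ratio of -0.23 [-0.52, 0.07]. Kdm6a, the X-linked demethylase of the same mark, was at 24.6 and 24.8 CPM at day +7 and at 38.7 and 34.7 CPM at day +14. In CD4 cells Kdm6b stood at 30.9 and 15.7 CPM at day +7, giving a log2 ratio of -0.97 [-1.59, -0.36], and stood at 24 and 16.0 CPM at day +14, giving a log2 ratio of -0.59 [-1.25, 0.09].

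By the count with 1 CPM added, 0 of the 8 genes were past the fold in the lower direction in CD8 cells at day +7, beside 10.9% of genes, and 1, Tet3, at day +14, beside 15.4%. In CD4 cells 1, Kdm6b, was lower at day +7, beside 16.8%, and 3, Dnmt3a, Tet2 and Kdm6b, were lower at day +14, beside 25.7%. The CD4 value of Kdm6b at day +14 rests on 35 and 46 UMIs and changed sign with a wider gap between the cycling gates, to 0.25, and in non-cycling cells without a cycle UMI, to 0.10. That of Tet2 was -0.24 with the wider gap, -0.21 with thinned cells and -0.02 in non-cycling cells without a cycle UMI, and the CD8 value of Tet3 was -0.35 with the wider gap.

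CD8 cells were put in 7 steps by their UMIs of the 20 cycle genes, from none to 40 and more per 10000 UMIs. Ezh2 lay between 23.6 and 27.7 CPM in the 4 steps below 10 at day +7, then at 51.9, 120 and 215 CPM. Dnmt1 had no such flat stretch and went from 25.5 CPM in the first step through 58.1 in the fourth to 176 in the last. Suz12 stood at 40.2 CPM in the first step and 128 in the last, and Eed at 24.7 CPM in the first, 54.8 in the sixth and 53.5 in the last.

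At day +14 Ezh2 was at 36.9 CPM [28.4, 47.2] in cells without a cycle UMI, between 49.3 and 54.1 in the next 3 steps and at 215 in the last, the same level as at day +7. Dnmt3a did not climb with the steps on either day, with 18.9 CPM in the first and 12.9 in the last at day +7 and 35.2 and 20.7 at day +14. The depth of the cells moved with the steps, from a median of 5842 UMIs in the first to 15127 in the last at day +7. With every cell thinned to 4000 UMIs the CD8 log2 ratios were 2.49 and 1.95 for Ezh2, 1.76 and 1.86 for Dnmt1, 1.33 and 1.06 for Suz12 and 0.80 and 0.98 for Eed at day +7 and day +14.

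**Figure D3:**
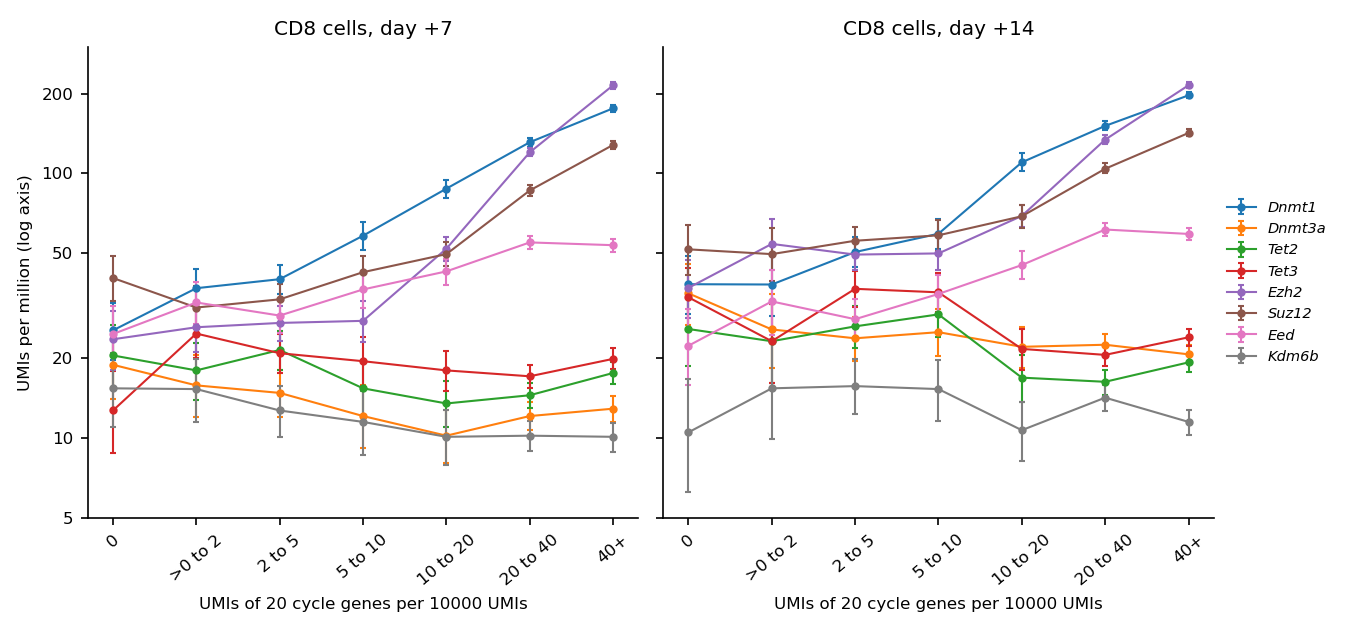
Level of each gene in CPM (log axis, 95% Poisson intervals) in CD8 cells sorted into 7 steps by their UMIs of the 20 cycle genes per 10000 UMIs, at day +7 (left) and day +14 (right), with 1 library per panel. Ezh2 reaches 215 in the last step on both days, whereas Dnmt3a, Tet2, Tet3 and Kdm6b stay below 40 throughout.

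Within cycling CD8 cells the genes were also compared by phase. Cells in which the 10 S phase genes held more UMIs than the 10 G2/M genes were called S-leading. None of the 8 genes was past the fold in CD8 cells, beside 8.62% of genes in either direction at day +7 and 8.25% at day +14. Kdm6b was under a mean of 10 CPM at day +7 and could not be counted there. Dnmt1 was at 171 CPM [165, 177] in S-leading and 132 CPM [128, 136] in G2/M-leading cells at day +7, a log2 ratio of 0.38 [0.31, 0.44], and at 177 and 167 CPM at day +14, giving a log2 ratio of 0.08 [0.02, 0.14]. Eed was also higher in S-leading cells, with 0.37 [0.26, 0.48] and 0.24 [0.13, 0.34]. Ezh2 was lower in them, with 145 and 157 CPM and a log2 ratio of -0.11 [-0.18, -0.05] at day +7, and 154 and 180 CPM and -0.23 [-0.29, -0.16] at day +14. Dnmt3a was higher in S-leading cells, with 0.45 [0.22, 0.68] and 0.21 [0.03, 0.37], the latter -0.08 with thinned cells, and Tet2 was at -0.24 [-0.43, -0.05] at day +14. Among the partners Hells and Uhrf1 led, with log2 ratios of 1.17 [1.10, 1.24] and 1.02 [0.93, 1.12] at day +7. The CD4 cells of each phase numbered between 83 and 149.

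In cycling CD4 cells 4 of the 8 genes were past the fold between the phases at day +7, beside 27.5% of genes in either direction, and 3 at day +14, beside 24.1%. At day +14 Dnmt3a stood at 33.6 CPM in S-leading and 12.8 CPM in G2/M-leading cells (39 and 22 UMIs), giving a log2 ratio of 1.39 [0.60, 2.22], and Suz12 at 138 and 93.2 CPM, giving a log2 ratio of 0.56 [0.24, 0.89]. With thinned cells these ratios were 0.59 and 0.21. Tet2 was past the fold in the lower direction on both days, with -0.58 [-1.59, 0.37] and -0.74 [-1.65, 0.10]. At day +7 Dnmt3a, Tet3 and Kdm6b were past it in the higher direction, with 0.59 [-0.40, 1.57], 0.58 [-0.12, 1.28] and 0.66 [-0.22, 1.54], and Dnmt3a was at -0.83 with thinned cells. None of these 3 intervals, nor those of Tet2, lay apart from 0.

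The second comparison was between the days. Dnmt3a was higher at day +14 in all kept cells and in all 4 gates, and it was the only one of the 8 genes past the fold in every one of these 5 comparisons, though not in cycling CD4 cells when 2 UMIs of the lineage gene were asked for (0.51 before the added CPM). Over all kept cells the count was 1 of 8 higher, beside 12.6% of genes tested, and 0 lower, beside 3.19%. Most genes lay above 0 in this contrast, with a median log2 ratio of 0.18, and scaling by the median ratio of genes lowers every value by 0.21, so the smaller differences of the other genes are to be read against that shift. The median of the 8 genes was 0.31.

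Dnmt3a went from 13.0 CPM [12.3, 13.8] to 23 CPM [22.0, 24.1] in all kept cells, a log2 ratio of 0.82 [0.72, 0.93] that was above that of 96.2% of genes. In the same cells B cell genes stood at 27.4 and 212 CPM, and their part in the difference was not tested. In CD8 cells it went from 15.9 to 26.6 CPM in the non-cycling gate, a log2 ratio of 0.74 [0.46, 1.03], and from 12.2 to 21.5 CPM in the cycling gate, a log2 ratio of 0.82 [0.68, 0.96]. The difference between these 2 ratios was -0.07 [-0.38, 0.24]. In CD4 cells it went from 17.4 CPM [11.4, 25.6] to 44.6 CPM [34.4, 56.8] in the non-cycling gate, a log2 ratio of 1.35 [0.68, 2.07], and from 12.8 CPM [9.10, 17.5] to 21.2 CPM [16.2, 27.2] in the cycling gate, a log2 ratio of 0.73 [0.13, 1.35]. Of the gates named in this paragraph, cycling CD4 cells are the one in which the intervals of Dnmt3a at the 2 days overlap. Split by phase, cycling CD4 cells went from 16.1 to 33.6 CPM when S-leading and from 10.7 to 12.8 CPM when G2/M-leading. The intervals of the days overlap in both phases. Its relative Dnmt3b, the other de novo methyltransferase, was at 4.24 CPM [3.82, 4.70] and 4.47 CPM [4.03, 4.95] in all kept cells, and Dnmt3l had 4 and 7 UMIs.

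**Figure D4:**
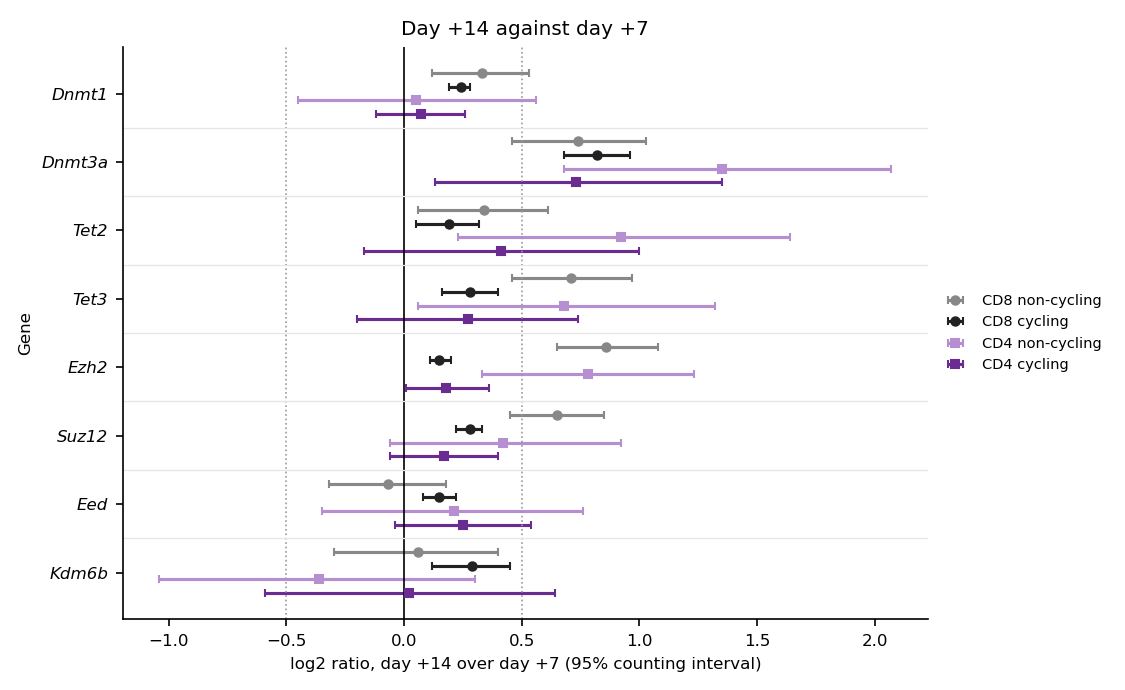
Log2 ratio of day +14 over day +7 (x axis, with 95% counting intervals) for each gene in CD8 (circles) and CD4 (squares) non-cycling and cycling cells, with dotted lines at -0.5 and 0.5 and 1 library per day. Dnmt3a lies right of 0.5 in all 4 gates, while Ezh2 does so in both non-cycling gates only, at 0.86 and 0.78.

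Ezh2 differed between the days mainly in non-cycling cells. It went from 26.2 to 47.5 CPM in non-cycling CD8 cells, a log2 ratio of 0.86 [0.65, 1.08], and from 153 to 170 CPM in cycling ones, a log2 ratio of 0.15 [0.11, 0.20]. The difference between these ratios was 0.71 [0.49, 0.92]. In CD4 cells the log2 ratios were 0.78 [0.33, 1.23] and 0.18 [0.01, 0.36], a difference of 0.59 [0.13, 1.06]. The non-cycling level of Ezh2 thus amounted to 17.1% of the cycling level at day +7 and 27.9% at day +14 in CD8 cells, and to 27.2% and 41.1% in CD4 cells.

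Genes of the cell cycle that the gate did not use moved in the same direction within non-cycling CD8 cells. The sum of Mcm2, Mcm4, Mcm7, Rrm1, Ung, Ccna2, Kif11, Bub1, Hmmr and Cenpe stood at 65.4 CPM at day +7 and 87.0 at day +14, which is 6.74% and 7.81% of its level in cycling cells. Dnmt1 had a log2 day ratio of 0.33 [0.12, 0.53] in these cells. Uhrf1 was at 2.97 CPM [2.10, 4.07] and 5.99 CPM [4.40, 7.97]. The median depth of non-cycling CD8 cells was 6550 UMIs at day +7 and 5083 at day +14, while NK cell genes in them went from 20.5 to 2.68 CPM, B cell genes from 24.4 to 120 CPM, myeloid genes from 46.1 to 64.6 CPM and erythroid genes from 7.34 to 18.7 CPM. The part of these shifts in the day ratio of Ezh2 was not tested. In non-cycling CD8 cells the ratio of Ezh2 lay between 0.65 and 0.88 under the 11 alternative settings.

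Suz12 went from 34.1 to 53.5 CPM in non-cycling CD8 cells, a log2 ratio of 0.65 [0.45, 0.85], and Tet3 from 20.4 CPM [18.0, 23] to 33.4 CPM [29.5, 37.7], a log2 ratio of 0.71 [0.46, 0.97]. In cycling CD8 cells both had a log2 ratio of 0.28, with intervals of [0.22, 0.33] for Suz12 and [0.16, 0.40] for Tet3. The non-cycling ratio of Suz12 was 0.47 under median-ratio scaling and 0.36 in cells without a cycle UMI. The differences between the gates were 0.37 [0.17, 0.57] for Suz12 and 0.43 [0.15, 0.70] for Tet3. Eed stood at 29.1 and 27.8 CPM in non-cycling CD8 cells, a log2 ratio of -0.07 [-0.32, 0.18], so the PRC2 core did not move as 1 group. Tet2 had log2 ratios of 0.34 [0.06, 0.61] and 0.19 [0.05, 0.32], and Kdm6b of 0.06 [-0.30, 0.40] and 0.29 [0.12, 0.45], in non-cycling and cycling CD8 cells.

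Past the fold in non-cycling CD8 cells were 4 of the 8 genes, Dnmt3a, Tet3, Ezh2 and Suz12, beside 21.5% of genes tested. In cycling CD8 cells it was 1 of 8, Dnmt3a, beside 11.3%. In non-cycling CD4 cells 4 of 8 were past it, Dnmt3a, Tet2, Tet3 and Ezh2, beside 27.8%, and in cycling CD4 cells 1 of 8, Dnmt3a, beside 15.4%. None was lower in any gate with the main settings, beside 4.65% of genes in non-cycling CD8, 3.23% in cycling CD8, 7.11% in non-cycling CD4 and 4.65% in cycling CD4 cells. In non-cycling CD4 cells the calls of Tet2 (28 and 52 UMIs) and Tet3 (37 and 58 UMIs) changed sign when the cells were thinned to 4000 UMIs, with log2 ratios of -0.21 and -0.17, and again in cells without a cycle UMI, with -0.87 and -0.54. That of Ezh2 was 0.12 with thinned cells and 1.27 in cells without a cycle UMI. Thinning left out cells with fewer than 4000 UMIs, and the median of non-cycling CD4 cells at day +14 was 4312 UMIs. Kdm6b in non-cycling CD4 cells was at -0.36 [-1.04, 0.30], from 30.9 to 24 CPM, and lay between -1.33 with the wider gap and 0.90 with thinned cells. In non-cycling CD8 cells without a cycle UMI it was at -0.55.

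Among the partner genes, several of Polycomb repressive complex 1 (PRC1), which ubiquitinates histone H2A, and the accessory PRC2 subunit Aebp2 were higher at day +14. Over all kept cells Cbx6, a chromodomain subunit of PRC1, went from 9.23 to 20.2 CPM, Kdm2b, which brings a variant PRC1 to unmethylated CpG islands, from 25.8 to 50.2 CPM, and Aebp2 from 59.3 to 113 CPM. Their log2 ratios were 1.13 [1.01, 1.26], 0.96 [0.88, 1.03] and 0.93 [0.88, 0.98]. Asxl2, a cofactor of the deubiquitinase that opposes PRC1, and Bcor, a subunit of variant PRC1, had log2 ratios of 0.70 [0.62, 0.77] and 0.62 [0.53, 0.72]. In all, 5 of 13 PRC1 genes, 2 of 7 PRC2 partners, 2 of 3 genes of the deubiquitinase and 0 of 9 DNA methylation partners were past the fold, all of them higher, beside 12.6% of all genes and 1 of the 10 further genes of the cell cycle. Kdm6a went from 25.7 CPM [24.6, 26.8] to 36.4 CPM [35.1, 37.7].

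Genes that Polycomb or DNA methylation is known to keep silent were also counted. Of 10 classic Polycomb-silenced genes 3 had no UMI at day +7 and 5 none at day +14. Most UMIs of the list, 829 and 1993 in all, came from Cdkn2a, which encodes inhibitors of the cell cycle and had 734 UMIs, 8.46 CPM [7.86, 9.10], at day +7 and 1764 UMIs, 21 CPM [20.1, 22.1], at day +14. It was at 8.44 CPM [7.69, 9.26] and 24.2 CPM [22.9, 25.5] in cycling CD8 cells and at 5.15 CPM [3.99, 6.56] and 12.7 CPM [10.4, 15.5] in non-cycling ones. Cdkn2b, its neighbor, had 88 and 223 UMIs. The 6 germline genes silenced by DNA methylation, Dazl, Ddx4, Mael, Sycp3, Tex101 and Taf7l, had 6 UMIs together at day +7 and 4 at day +14.

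The third comparison set CD4 against CD8 cells within each library. Kdm6b and Ezh2 were higher in non-cycling CD4 cells on both days. Kdm6b stood at 30.9 CPM [22.6, 41.2] in CD4 and 14.0 CPM [12, 16.2] in CD8 cells at day +7, a log2 ratio of 1.14 [0.64, 1.62] that was above that of 98.2% of genes, and at 24 CPM [16.7, 33.4] and 14.5 CPM [12, 17.5] at day +14, giving a log2 ratio of 0.72 [0.13, 1.28]. With other settings Kdm6b gave 0.22 at day +7 with thinned cells and -0.08 at day +14 with the wider gap. Its intervals in the lineages are apart at day +7 and overlap slightly at day +14. Ezh2 stood at 45.6 and 26.2 CPM at day +7 and at 78.1 and 47.5 CPM at day +14, with log2 ratios of 0.80 [0.40, 1.18] and 0.72 [0.40, 1.02]. Thinning the cells took its day +14 value to 0.30.

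These 2 genes were the ones past the fold at day +7, beside 11.7% of genes. At day +14 there were 4, beside 13.5%, with Dnmt3a at 0.74 [0.32, 1.15] and Eed at 0.59 [0.16, 1.01] in addition. In cycling cells 1 gene, Kdm6b, was past the fold at day +7, with 15.7 and 10.1 CPM and a log2 ratio of 0.64 [0.18, 1.06], beside 4.37% of genes, and -0.04 with thinned cells, and 0 at day +14, beside 5.38%. None of the 8 was lower in CD4 cells with the main settings, beside 5.34% and 5.11% of genes in non-cycling and 3.51% and 4.65% in cycling cells at day +7 and day +14. At day +7, 1 gene was lower in non-cycling cells with the wider gap and 1 in cycling cells with thinned cells. Dnmt1 differed little between cycling cells of the lineages, with log2 ratios of 0.04 [-0.10, 0.18] and -0.13 [-0.27, 0.01]. A UMI of Foxp3, the marker of regulatory T cells, was found in 20 CD4 cells at day +7 and 13 at day +14. It was also found in 142 and 35 cells of the CD8 gate, so a Foxp3 UMI did not mark CD4 cells alone. Without the CD4 cells that had one, Kdm6b stood at 31.7 and 23.9 CPM and Ezh2 at 45.7 and 78.0 CPM in the non-cycling CD4 gate.

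Across the 12 groups of 2 days, CD4 or CD8, and non-cycling, S-leading or G2/M-leading cells, the 8 genes were compared by correlation of log2(CPM + 1). Among Dnmt1, Ezh2, Suz12 and Eed the correlations lay between 0.90 and 0.96, and among Dnmt3a, Tet2, Tet3 and Kdm6b between 0.30 and 0.63. Between these sets they ran from -0.64 (Dnmt1 with Tet2) to -0.07 (Suz12 and Eed with Dnmt3a). The groups are themselves cut by cycle genes, so the correlations in part repeat the cycling ratios. The groups also share 2 libraries and differ in depth, so these values are a description. Of 6907 genes the most alike to Dnmt1 were Fen1, Usp1 and Cenpk (r of 0.99 to 1.00), to Ezh2 Xpo1, Plk4 and Blm (0.98 to 0.99), to Suz12 Fmr1, Rad18 and Smarca5 (0.99) and to Eed Psma4, Stoml2 and Dnph1 (0.98). Those most alike to Dnmt3a were Ktn1, Mllt6 and Bcor (0.94), to Tet2 Mkrn1, Nfkbil1 and Slc38a9 (0.95 to 0.98), to Tet3 Ankle2, Sh2b1 and Fto (0.92 to 0.95) and to Kdm6b Btla, Srgn and Rnf19a (0.91 to 0.96).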

How the data were processed

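scRNA-seq was performed on 2 libraries of sorted splenic donor T cells, 1 per day. The authors deposited raw UMI counts per gene and cell for barcodes that passed cell detection, made with Cell Ranger 6.1.2 on mm10 per the submitters' processing notes. Cells with 500 to 7500 genes and at most 15% mitochondrial UMIs were kept, so 7179 of 7355 barcodes with 86745047 UMIs remained at day +7 and 7794 of 8043 with 83808218 UMIs at day +14. The libraries shared 17 barcode sequences among kept cells. Scrublet in scanpy 1.11.5 marked 0 barcodes in both libraries, so the caller did not work and doublets remain. Gates required at least 10 T cell UMIs and at most 50 myeloid, erythroid and B cell UMIs per 10000. Counts were summed per gate with Python 3.11.15, numpy 2.4.6, scipy 1.17.1 and pandas 2.3.3. Intervals are exact Poisson for levels, exact conditional binomial (Clopper-Pearson) for ratios, and normal for differences between log2 ratios, all at 95%. Ratios printed carry no added CPM, and the count of genes past the fold uses 1 CPM. Cells with no UMI of the 20 cycle genes were set apart as an alternative chosen after seeing the data, as was the list of 10 further cycle genes. The functions for the log2 ratios and their intervals were tested on counts simulated for cycling CD8, non-cycling CD8 and non-cycling CD4 cells. The gates and the differences between ratios were not tested in that way. The named genes are all 8 members, up to 6 listed partners per comparison past the fold by size, the paired genes Ezh1, Uhrf1, Kdm6a and Tet1, and the 3 genes most like each member. A partner gene that the rule names is not reported here. Dnmt3b, Dnmt3l, Cdkn2a and Cdkn2b come from the same lists and were named after their values were seen. The members, lists and gates were chosen with earlier results of these data known. Alternatives changed scaling, the mitochondrial limit, gates, depth, doublet scores and averaging over cells. Gene positions are from GENCODE M21 and promoter sequences from RefSeq (GRCm38.p6).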

Additional observations from a re-analysis of the deposited data

How the results depend on the processing

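No paired analysis was possible because there was 1 library per day, and no library could be left out. Of 1360 ratios of the 8 genes under alternatives, 1229 stayed within their counting interval, and 70 changed sign, 57 of them in comparisons with CD4 cells and 9 of them past the fold in the main values; the causes were not tested. Tet2 and Tet3 between days in non-cycling CD4 cells became -0.21 and -0.17 with cells thinned to 4000 UMIs and -0.87 and -0.54 in cells without a cycle UMI. Kdm6b became -0.04 in CD4 over CD8 cycling cells at day +7 with thinning, 0.25 and 0.10 in cycling over non-cycling CD4 cells at day +14 with a wider gap and without cycle UMIs, and -0.08 in CD4 over CD8 non-cycling cells at day +14 with the wider gap. Dnmt3a between phases in CD4 cells at day +7 became -0.83 with thinning. The number of genes past the fold went, with the mean of per-cell CPM, to 2 of 8 between days in all kept cells, 3 in cycling CD4 cells, 1 between phases in CD8 cells at day +7, and 0 and 1 in CD4 over CD8 cycling cells at day +7 and day +14. With thinning it went to 2 and 3 between days in non-cycling and cycling CD4 cells and to 2 in CD4 over CD8 cycling cells at day +7. Between phases in CD4 cells it went at day +7 to 1 with the wider gap, with 2 lineage UMIs and without the highest Scrublet scores, and to 2 without Foxp3 cells, and at day +14 to 5 with the mean of per-cell CPM. With 2 lineage UMIs it was 0 between days in cycling CD4 cells, without cycle UMIs 7 in cycling over non-cycling CD8 cells at day +7, and with the wider gap 4 and 2 in CD4 over CD8 non-cycling cells at day +7 and day +14. The share of all genes past the fold between days with 10 CPM added was 8.27% in all kept, 15.3% in non-cycling CD8, 7.23% in cycling CD8, 23% in non-cycling CD4 and 10.8% in cycling CD4 cells (15.8%, 26.1%, 14.5%, 35.0% and 20.1% with 1 CPM). It was 4.81% and 4.46% between phases in CD8 cells, 16.7% and 14.0% between phases in CD4 cells, and in CD4 over CD8 cells 9.31% and 10.3% in non-cycling and 4.27% and 5.96% in cycling cells at day +7 and day +14. Without the filter on low values it was 30.1% between days in cycling CD4 cells, 45.3% and 43.1% between phases in CD4 cells, and in CD4 over CD8 cells 28.3% and 30.4% in non-cycling and 13.5% and 15.5% in cycling cells. The CD4 gates, with 26 to 68 UMIs of several genes, limit the depth. Thinning left out the 198 and 969 kept cells with fewer than 4000 UMIs, so its values come from fewer cells.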
